A study of Mus musculus with 2 samples.

Results

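DNA replication and G1/S genes were followed in mouse fibro-adipogenic progenitors (FAPs), stromal cells of muscle that can become adipocytes. The genes were 47 of the 44291 genes in the files, taken by gene symbol from a fixed list that covers origin licensing, the replication fork, nucleotide supply and chromatin assembly. The rule for the choice uses no measured value, although the list was drawn up with earlier results of these data known. RNA-seq was performed on wild-type primary FAPs that were given platelet-rich plasma (PRP) or vehicle and were afterwards kept in adipogenic medium. Both groups shared that medium, which held insulin at 10 μg/ml, dexamethasone at 0.25 μM, IBMX at 0.5 mM and 20% FBS. There was 1 library in each group and 2 in all, so every difference is one between 2 libraries and has no replicate check. The treatment is PRP by the labels, while the study's own text speaks of exosomes prepared from PRP of young donors, and the names PRP and control follow the labels. Neither the age of the mice nor the number of animals behind a culture is given in the labels.

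The deposited values are FPKM, which are reads scaled to exon length and to the total of reads assigned to genes. The PRP library held 40120843 assigned reads and the control library 34139741. A typical replication gene was measured by a modest number of reads, with a range from 88 to 5394 reads in the PRP library and from 89 to 5624 in the control library. For each gene the ratio of PRP FPKM to control FPKM is given with an exact Clopper-Pearson 95% binomial interval, worked out from the read numbers behind the FPKM. These intervals cover counting error only, take no account of PCR duplicates or of differences between cultures, and compare the libraries rather than the treatments. The labelled cell type was checked against marker genes. Pdgfra, the surface receptor that marks FAPs, was at 19.8 FPKM with PRP and 28.0 in the control, and Ly6a was at 59.9 and 66.4. The fibroblast proteoglycan gene Lum was near absent, at 0.0815 and 0.0718 FPKM.

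Before a cell copies its genome, the origin recognition complex with Cdc6 and Cdt1 loads the MCM helicase onto DNA in G1. The kinase Cdc7 with its partner Dbf4 then starts the helicase together with Cdc45 and the GINS complex, and primase, the polymerases, the PCNA clamp and DNA ligase copy the strands behind it. Many of these genes are transcribed at the G1/S boundary by E2F factors once cyclin-dependent kinases have inactivated RB. Resting FAPs of muscle divide little, expand after injury and slow their division again as they turn into adipocytes.

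The letters through which E2F is known to bind were looked up first, since they are what many of these promoters have in common. The RefSeq promoter windows, which run on GRCm38.p6 from 250 bases before to 50 bases after a transcription start, held 40 of the 47 genes by symbol. The motif TTTCCCGC, TTTGGCGC, TTTCGCGC or TTTGCCGC was searched on both strands, and overlapping matches were kept. It was present for 15 of these 40 genes (37.5%), against 416 of the 8655 expressed genes (mean FPKM of 1 or more) that had a window (4.81%) and 744 of all 32851 windows (2.26%). Whole windows are shown for a pair of genes because Mcm5 and Mcm7 both carry the motif, encode subunits of the same helicase ring and differed in opposite directions between the libraries. Capitals mark the E2F letters on either strand, and overlapping matches form a single run. The Mcm5 window lies at chr8:75109259-75109558 on the plus strand and the Mcm7 window at chr5:138171834-138172133 on the minus strand.
Mcm5: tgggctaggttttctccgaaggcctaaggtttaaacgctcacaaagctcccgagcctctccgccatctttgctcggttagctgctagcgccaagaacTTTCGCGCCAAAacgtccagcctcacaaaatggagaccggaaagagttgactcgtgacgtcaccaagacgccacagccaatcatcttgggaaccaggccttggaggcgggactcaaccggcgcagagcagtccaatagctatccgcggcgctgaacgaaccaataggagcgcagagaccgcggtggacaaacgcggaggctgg
Mcm7: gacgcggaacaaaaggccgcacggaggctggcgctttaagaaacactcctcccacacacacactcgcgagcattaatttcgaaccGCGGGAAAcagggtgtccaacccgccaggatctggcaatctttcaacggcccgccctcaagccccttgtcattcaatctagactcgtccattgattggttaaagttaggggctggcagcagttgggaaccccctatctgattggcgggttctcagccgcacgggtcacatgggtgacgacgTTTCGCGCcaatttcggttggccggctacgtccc

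Shorter stretches with the same marking are shown for the licensing genes Orc1, Cdc6 and Cdt1 and for Mcm6, Lig1, Uhrf1 and Pold3, which are described with their values below. They lie at chr4:108579407-108579454, chr11:98907993-98908040, chr8:122568027-122568064 (all on the plus strand), chr1:128359725-128359835 (minus), chr7:13278832-13278875 (plus), chr17:56304108-56304155 (plus) and chr7:100121458-100121505 (minus), in that order.
Orc1: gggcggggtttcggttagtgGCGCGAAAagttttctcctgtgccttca
Cdc6: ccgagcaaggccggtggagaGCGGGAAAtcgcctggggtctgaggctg
Cdt1: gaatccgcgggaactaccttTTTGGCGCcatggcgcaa
Mcm6: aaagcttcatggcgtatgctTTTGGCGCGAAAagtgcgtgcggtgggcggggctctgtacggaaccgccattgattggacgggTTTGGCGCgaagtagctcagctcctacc
Lig1: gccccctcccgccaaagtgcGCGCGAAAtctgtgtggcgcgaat
Uhrf1: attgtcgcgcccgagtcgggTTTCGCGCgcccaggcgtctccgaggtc
Pold3: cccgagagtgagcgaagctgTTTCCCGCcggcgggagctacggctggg

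To ask how far PRP moved the replication genes, the libraries were compared gene by gene. The genes as a group were slightly lower in the PRP library. Tk1 and Lig1 lay furthest below the control, Dbf4 and Mcm7 lay furthest above it, and no member differed 2-fold. The summed level of the 47 genes was 331.0 FPKM with PRP and 365.3 in the control, which is 0.0965% and 0.108% of all FPKM, and the ratio of these sums was 0.906. Counted as fragments, the genes held 28028 with PRP and 26740.5 in the control, a ratio of 0.892 per library total with an interval from 0.877 to 0.907. Lower levels in bulk RNA can come, for example, from fewer dividing cells or from less RNA of these genes per cell, and these cannot be told apart.

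Fold changes are given as log2(PRP FPKM + 1) minus log2(control FPKM + 1), which understates the change of low genes, for genes whose mean FPKM was 1 or more. That filter kept 46 of the 47 members and 13401 genes in all. Pole2, a subunit of DNA polymerase epsilon, was left out by it at 0.761 and 0.905 FPKM, and the members kept were above 1 FPKM in both libraries. Of the 46 genes, 31 were lower in the PRP library (67.4%) and 15 were higher, where 49.1% of all genes tested were lower. The median log2 fold change of the members was -0.08, with quartiles of -0.26 and 0.05, beside a median of 0.01 and quartiles of -0.19 and 0.21 over all genes. Differences were small in size. Tk1 was the single member lower by at least 1.5-fold (2.17% of the members, against 4.57% of all genes), and none was higher by that much, as 6.15% of all genes were. At a lower limit, a log2 fold change of 0.32 in size, 6 of the 46 members were lower (13%, against 14.1% of all genes) and none was higher, against 16.2% of all genes.

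The counting intervals show the same tilt. The interval lay below 1 for 17 of the 46 members (37%), where it did so for 26.1% of the 12372 tested genes whose reads could be recovered as whole numbers. It lay above 1 for 2 members (4.35%), Mcm7 and Dbf4, where it did so for 26.1% of all genes, and it included 1 for the other 27. Such counts depend on the read number of a gene, and the relative half-width of the members' intervals ran from 5.36% to 45.4% with a median of 15.5%. The 12 members with a mean of at least 10 FPKM had 7 lower values and a median log2 fold change of -0.11, and the 34 tested members below 10 FPKM had 24 lower values and a median of -0.08. The order of levels changed little between the libraries, with a Pearson r of 0.985 across the 47 genes on the log2(FPKM + 1) scale, where genes are not independent replicates.

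**Figure D1:**
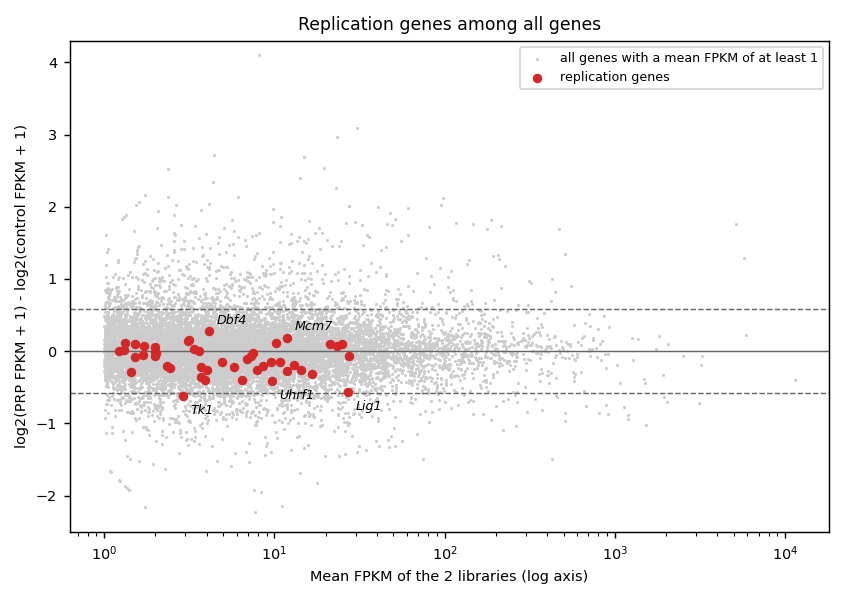
Log2 fold change between the libraries (y axis) against the mean FPKM of both (x axis, log scale) for 13401 genes in grey and the 46 tested replication genes in red, with dashed lines at 1.5-fold. The red points lie between -0.62 and 0.27, and only Tk1 falls outside the dashed lines.

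The 4 origin licensing genes did not show the tilt. Their median log2 fold change was 0.10, 3 of the 4 were higher in the PRP library, and each interval included 1. Orc1, the large ATPase subunit of the origin recognition complex, was at 1.44 FPKM with PRP and 1.57 in the control, a ratio of 0.915 (0.683 to 1.23). Orc6, the small subunit, was at 10.6 and 9.74 FPKM, a ratio of 1.09 (0.956 to 1.24). Cdc6, the loading ATPase, was at 1.61 and 1.43 FPKM, a ratio of 1.12 (0.885 to 1.42). These are low levels apart from that of Orc6. Cdt1, which escorts the helicase to the origin, was at 1.405 and 1.23 FPKM, a ratio of 1.14 (0.820 to 1.59).

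The MCM2-7 genes, which encode the ring of the replicative helicase, split in direction. Mcm4, Mcm5 and Mcm6 had intervals below 1, Mcm7 had one above 1, and those of Mcm2 and Mcm3 included 1. Mcm5 was at 5.42 FPKM with PRP and 7.44 in the control, a ratio of 0.729 (0.640 to 0.831). Mcm4 was at 7.09 and 8.70 FPKM, a ratio of 0.815 (0.720 to 0.922). Mcm6 was at 7.90 and 9.22 FPKM, a ratio of 0.857 (0.773 to 0.950). The ring subunits Mcm2 and Mcm3 stood closer to the control. Mcm2 was at 7.11 and 7.46 FPKM, a ratio of 0.953 (0.869 to 1.04). Mcm3 was at 23.9 and 22.7 FPKM, a ratio of 1.05 (0.981 to 1.13). Mcm7 was at 12.7 and 11.1 FPKM, a ratio of 1.15 (1.05 to 1.26). The intervals of Mcm5 and Mcm7 do not overlap, and the ring holds 1 copy of each protein. In FPKM, Mcm3 was the highest and Mcm5 the lowest of the 6 in both libraries, and the highest stood 4.41 times above the lowest in the PRP library and 3.06 times in the control library.

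Among the 8 genes that turn the loaded ring into a moving helicase, Dbf4 and Gins1 differed in opposite directions beyond counting error. Dbf4, the activating subunit of the Cdc7 kinase, was at 4.63 FPKM with PRP and 3.65 in the control, a ratio of 1.27 (1.14 to 1.42). Its kinase partner Cdc7 was level, at 1.22 FPKM in both libraries, a ratio of 1.003 (0.746 to 1.35). Mcm10, a scaffold of the early fork, was at 3.32 and 2.91 FPKM, a ratio of 1.14 (0.997 to 1.31). Kinase and scaffold were thus level or higher, while the helicase cofactors were level or lower. Cdc45 was at 4.64 and 5.25 FPKM, a ratio of 0.883 (0.754 to 1.03). Gins1 was at 3.22 and 4.56 FPKM, a ratio of 0.707 (0.535 to 0.932). Of the other GINS subunits, none had an interval that left out 1. Gins2 was at 6.60 and 7.18 FPKM, a ratio of 0.920 (0.813 to 1.04), and 67.3% of its exon length is shared with Gse1 on the opposite strand. Gins3 was at 3.61 FPKM in both libraries, a ratio of 0.999 (0.808 to 1.24). Gins4 was at 26.7 and 28.0 FPKM, a ratio of 0.954 (0.857 to 1.06). The GINS proteins form a complex with 1 copy of each. In FPKM, which depend on the exon length used for each gene, Gins4 was the highest in both libraries. It stood 8.28 times above the lowest, Gins1, in the PRP library and 7.74 times above the lowest, Gins3, in the control library.

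Of Pcna, the sliding clamp, and the 5 subunits of its loader, Rfc1 alone had an interval that left out 1. Pcna was at 22.1 FPKM with PRP and 20.5 in the control, a ratio of 1.08 (0.985 to 1.18). Rfc1, the large subunit of the clamp loader, was at 12.9 and 15.7 FPKM, a ratio of 0.821 (0.766 to 0.881). The 4 small loader subunits had intervals that included 1. Rfc2 was at 1.99 and 2.04 FPKM, a ratio of 0.977 (0.812 to 1.18). Rfc3 was at 1.33 and 1.29 FPKM, a ratio of 1.03 (0.755 to 1.401). Rfc4 was at 3.54 and 4.45 FPKM, a ratio of 0.796 (0.607 to 1.04), so its point value was lower than that of Rfc1 on far fewer reads. Rfc5 was at 3.42 and 3.33 FPKM, a ratio of 1.03 (0.872 to 1.22). The order of the 5 subunits by FPKM was the same in both libraries, with Rfc1 at the top and Rfc3 at the bottom.

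**Figure D2:**
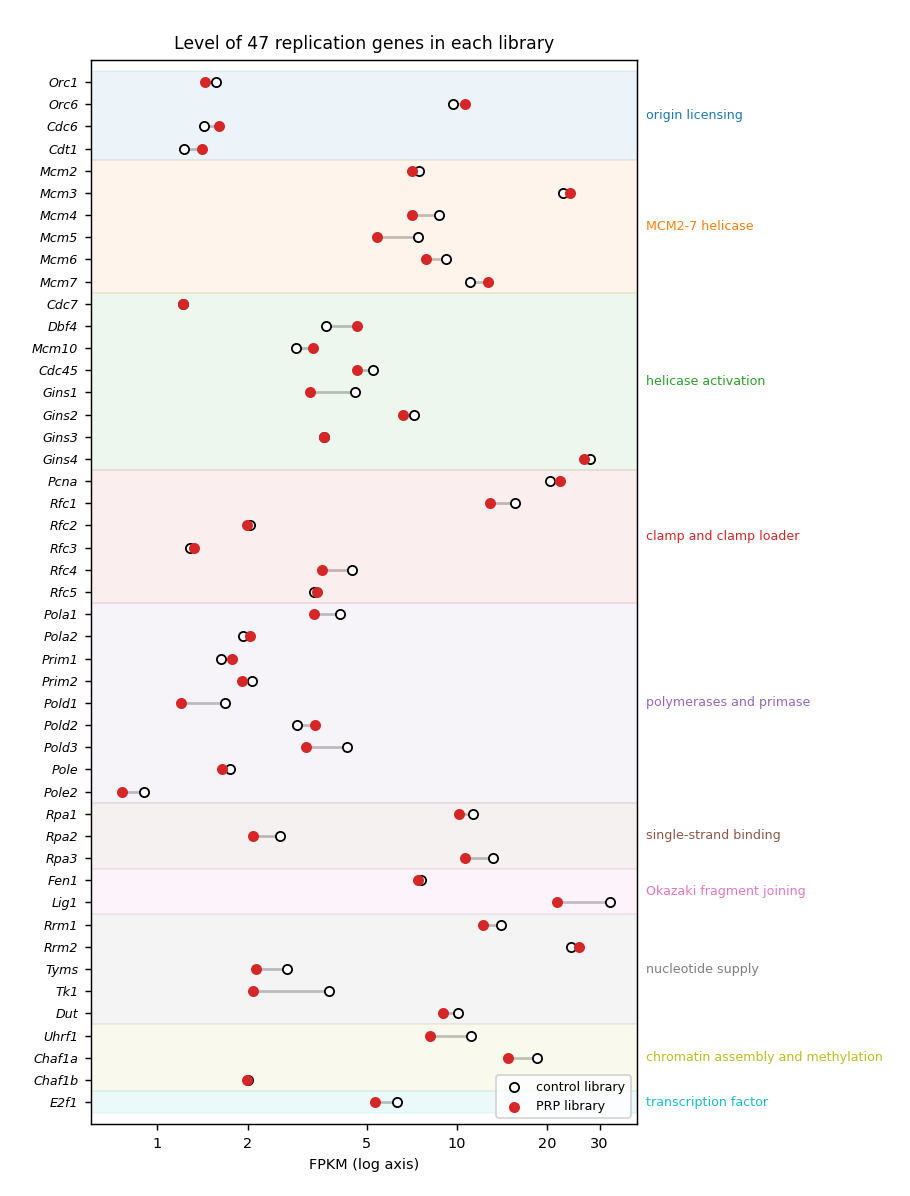
FPKM (x axis, log scale) of the 47 replication genes in the PRP library (red) and the control library (open circles), in rows by role. Grey bars join the values of a gene, and they are longest for Tk1, at 2.09 against 3.74 FPKM, and for Lig1, at 21.7 against 32.5 FPKM.

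DNA polymerases and primase were among the low members, and 3 of the 8 tested genes had intervals below 1. Pola1, the catalytic subunit of the polymerase that extends RNA primers, was at 3.33 FPKM with PRP and 4.07 in the control, a ratio of 0.819 (0.730 to 0.919). Pola2, its partner, was at 2.04 and 1.93 FPKM, a ratio of 1.06 (0.898 to 1.24). The primase genes that work with them did not differ beyond counting error. Prim1, the catalytic subunit, was at 1.77 and 1.64 FPKM, a ratio of 1.08 (0.836 to 1.41). Prim2, the regulatory subunit, was at 1.91 and 2.07 FPKM, a ratio of 0.926 (0.764 to 1.12).

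Polymerase delta, which copies the lagging strand, had its catalytic subunit Pold1 at 1.2003 FPKM with PRP and 1.69 in the control, a ratio of 0.711 (0.552 to 0.916). Pold3, an accessory subunit, was at 3.14 and 4.29 FPKM, a ratio of 0.731 (0.623 to 0.858). Pold2 went the other way within a wide interval. It was at 3.37 and 2.94 FPKM, a ratio of 1.15 (0.872 to 1.51). Pole, the catalytic subunit of the leading strand polymerase, was at 1.64 and 1.75 FPKM, a ratio of 0.940 (0.809 to 1.09). For Pole2, read by 88 and 89 reads, the ratio of 0.841 had an interval from 0.542 to 1.31, so that a difference of the size seen in Pold1 was not detectable at this depth.

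The 3 subunits of RPA, which coats single-stranded DNA at the fork, were all lower in the PRP library. Rpa1, the large subunit, was at 10.1 FPKM with PRP and 11.3 in the control, a ratio of 0.896 (0.824 to 0.975). Rpa2 was at 2.09 and 2.57 FPKM, a ratio of 0.812 (0.631 to 1.05). Rpa3 was at 10.7 and 13.2 FPKM, a ratio of 0.811 (0.678 to 0.970). The point values were alike, and Rpa2, with 251 and 263 reads, was the one whose interval included 1.

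Lig1, the ligase that seals Okazaki fragments, was the member with the highest level in the control library and lay furthest below 1 after Tk1. It lies at chr7:13277283-13311433 on mm10 and was at 21.7 FPKM with PRP and 32.5 in the control, a ratio of 0.667 (0.627 to 0.709) and a log2 fold change of -0.56. The exon length of Lig1 in the annotation used here gave no whole reads, so its interval rests on 3677 and 4690 reads, the smallest whole numbers in that ratio. Fen1, the flap nuclease that acts just before the ligase, was level at 7.43 and 7.58 FPKM, a ratio of 0.980 (0.840 to 1.14), and 84.2% of its exon length is shared with Gm10143 on the opposite strand.

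Nucleotide supply held the member that lay lowest. Tk1, the salvage kinase for thymidine, lies at chr11:117815526-117826092 on mm10 and was at 2.09 FPKM with PRP and 3.74 in the control. Its ratio was 0.558 (0.468 to 0.664), on 435 and 663 reads, and its log2 fold change was -0.62. Tyms, which makes thymidylate by the other route, was at 2.14 and 2.70 FPKM, a ratio of 0.792 (0.667 to 0.940). Both ways to thymidylate were therefore lower in the PRP library. Ribonucleotide reductase was uneven between its subunits. Rrm1, the large subunit, was at 12.2 and 14.0 FPKM, a ratio of 0.871 (0.825 to 0.919). Rrm2, the small subunit made in S phase, was at 25.7 and 24.0 FPKM, a ratio of 1.07 (0.988 to 1.16), and the intervals of the subunits do not overlap. Dut, which removes dUTP, was at 8.97 and 10.1 FPKM, a ratio of 0.890 (0.776 to 1.02).

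Chromatin assembly and maintenance methylation were lower in the PRP library by the median, at -0.31 on the log2 scale over 3 genes. Uhrf1, which brings the maintenance DNA methyltransferase to newly copied DNA, was at 8.15 FPKM with PRP and 11.2 in the control, a ratio of 0.730 (0.659 to 0.809). Chaf1a, the large subunit of chromatin assembly factor 1, was at 14.8 and 18.6 FPKM, a ratio of 0.796 (0.754 to 0.839), and shares 52.5% of its exon length with Ubxn6 on the opposite strand. Chaf1b, its partner, was level at 1.99 and 2.00 FPKM, a ratio of 0.992 (0.799 to 1.23). E2f1, the transcription factor of the set, was at 5.32 and 6.32 FPKM, a ratio of 0.841 (0.721 to 0.981).

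**Figure D3:**
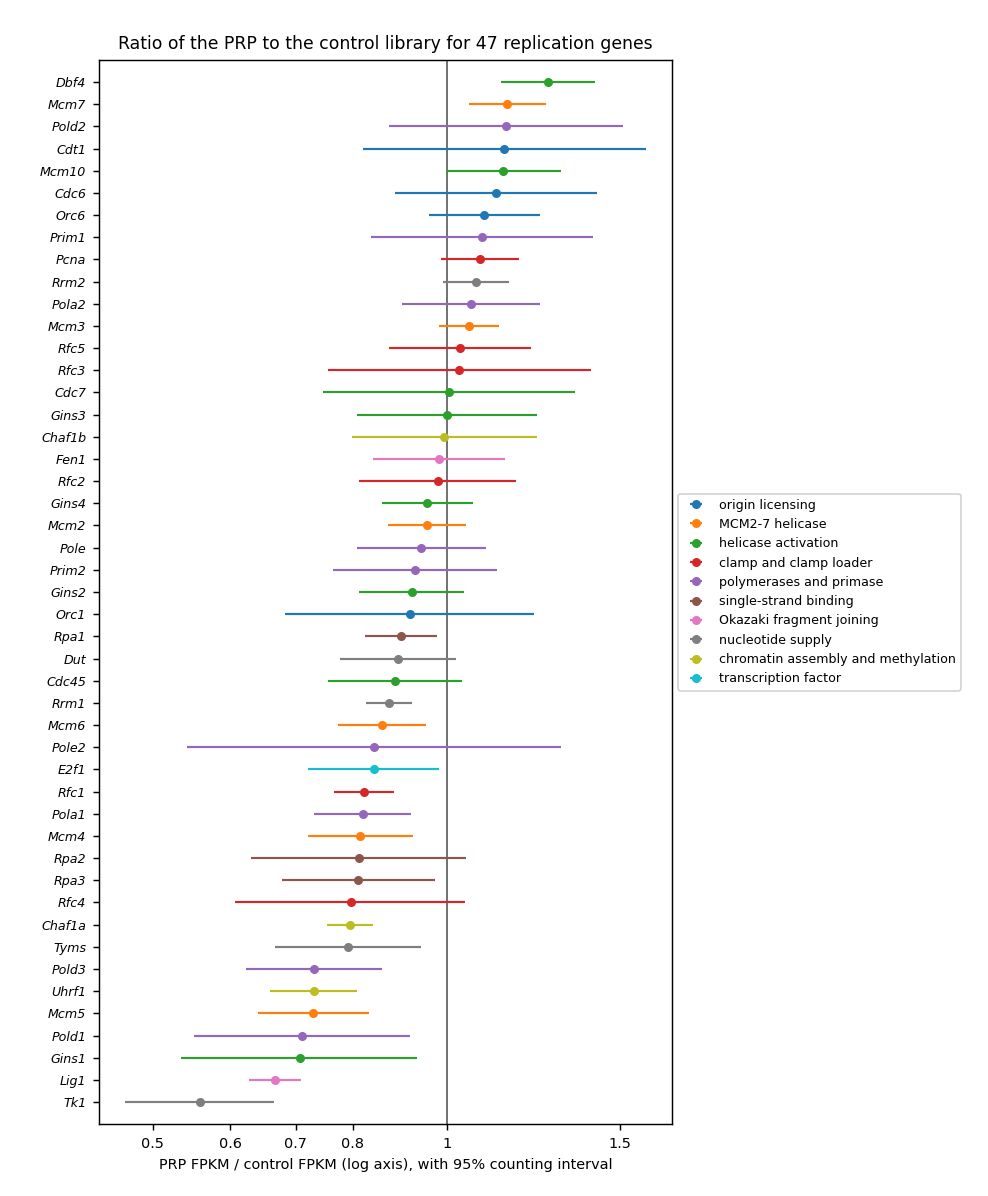
Ratio of PRP to control FPKM (x axis, log scale) for the 47 replication genes in order of the ratio, coloured by role, with 95% counting intervals as bars and a line at 1. From Tk1 at 0.558 at the bottom to Dbf4 at 1.27 at the top, 17 intervals lie wholly below the line and 2 wholly above it.

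Members with the E2F letters and members without them lay on both sides of 1, and the difference between them was not tested. Of the 15 genes with the motif, 14 were tested, 9 of them were lower in the PRP library and 5 higher, 7 intervals lay below 1 and 1 above, and the median log2 fold change was -0.14. Of the 25 genes whose window lacked it, 15 were lower and 10 higher, 8 intervals lay below 1 and 1 above, and the median was -0.06. The 7 genes without a window were all lower, 2 of them with intervals below 1, and their median was -0.07. Over all genes tested, 49.1% were lower. Of those with recovered reads, 26.1% had intervals below 1 and 26.1% above. In the windows shown above, the genes on both sides of 1 carry the letters. Mcm5, Mcm6, Lig1, Uhrf1 and Pold3 had intervals below 1, Mcm7 had one above, and those of Orc1, Cdc6 and Cdt1 included 1. In Mcm5 the overlapping pair starts 153 bases before the transcription start, and in Mcm7 the matches start 165 bases before it and at base 17 after it. For Lig1 the motif is in the window of 1 of its 3 listed starts, at base 27 after that start. The CCAAT box was found in the windows of 23 of the 40 genes (57.5%), against 43% of the genes tested, and TTTGAA in those of 7 (17.5%), against 14.4%. A match is a run of letters and says nothing of a bound factor, and genes not found in the promoter table were not searched.

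The study names let-7f-5p and miR-16-5p among the microRNAs enriched in the exosomes, so the members were also searched for their seed matches. The mature mouse sequences are printed with the seed, bases 2 to 8, in capitals.
mmu-let-7f-5p: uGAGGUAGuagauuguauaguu
mmu-miR-16-5p: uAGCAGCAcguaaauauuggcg
In the longest annotated 3′UTR of each gene, the 7-base let-7 match was present in 3 of the 47 members (6.38%), against 11.2% of the 10365 tested genes with a 3′UTR, and the miR-16 match in 7 (14.9%), against 27.1%. Longer 3′UTRs hold more matches by length alone, and length was not matched here. The matches in Dbf4, Rrm2 and Pold3 (let-7) and in Pold3, Rfc1 and Cdc6 (miR-16) are shown in capitals because these members lie on both sides of 1. On GRCm38 the 3 let-7 stretches lie at chr5:8397861-8397880 (minus), chr12:24713352-24713371 (plus) and chr7:100083639-100083651 (minus). The miR-16 stretches lie at chr7:100083536-100083555 (minus), chr5:65262341-65262360 (minus) and chr11:98919346-98919365 (plus). Cdc6 holds another miR-16 match further along its 3′UTR, in chr11:98923629-98923648, which is not printed.
Dbf4, let-7: gtatgcacagCTACCTCtgc
Rrm2, let-7: agctgtgtagCTACCTCagt
Pold3, let-7: atgCTACCTCtga
Pold3, miR-16: ctggatcagaTGCTGCTctg
Rfc1, miR-16: ctgaccacatTGCTGCTata
Cdc6, miR-16: gtttgctcttTGCTGCTttt
Of the 3 genes with a let-7 match, Dbf4 was higher in the PRP library (1.27), Rrm2 was not separable from 1 (1.07) and Pold3 was lower (0.731). Of the 7 with a miR-16 match, Pold3, Chaf1a, Rfc1 and Rpa1 had intervals below 1, while those of Gins2, Cdc7 and Cdc6 included 1. The interval lay below 1 for 37% of all tested members and for 26.1% of all tested genes with recovered reads. Whether a match goes with a lower ratio was not tested. The matches are a description of the sequence, and binding was not measured in these libraries.

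To see whether the rest of the replication machinery shared the tilt, 4 lists of other replication genes were set beside the members. Of their 64 genes 58 were tested, 28 were lower in the PRP library (48.3%) and 30 higher, and the median log2 fold change was 0.03. Intervals lay below 1 for 14 (24.1%) and above 1 for 17 (29.3%), beside 26.1% of all genes with recovered reads on each side. The lists differed. Lower were 11 of 15 tested fork genes, 6 of 12 origin, 7 of 13 chromatin and 4 of 18 nucleotide supply genes. Fork genes had 6 intervals below 1 and 2 above, and a median of -0.06 beside -0.08 for the members. Among other origin genes, the licensing inhibitor Gmnn was at 10.7 FPKM with PRP and 12.9 in the control (ratio 0.830, 0.708 to 0.972), and Orc4 was at 9.88 and 7.49 FPKM (1.32, 1.22 to 1.43). Mcm8 was at 1.36 and 1.77 FPKM, and Mcm9, its partner in recombination, at 1.54 and 1.28 FPKM. Mcm9 shares 19.2% of its exon length with Asf1a on the opposite strand. Among other fork genes, the lowest ratios belonged to genes at low levels and the highest ratios to genes at higher levels. Pclaf, which binds PCNA, was at 1.01 and 2.01 FPKM (0.503, 0.387 to 0.650), and Chtf18, of an alternative clamp loader, was at 0.734 and 1.29 FPKM (0.570, 0.422 to 0.765). Top1, which relieves DNA torsion, was at 47.6 and 40.8 FPKM (1.17, 1.13 to 1.201), and Pole4 was at 11.8 and 9.06 FPKM (1.30, 1.15 to 1.49).

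The other nucleotide supply genes leaned the other way from Tk1 and Tyms. Of 18 tested, 14 were higher in the PRP library, 11 intervals lay above 1 and 1 below, and the median log2 fold change was 0.14. Shmt1, of folate metabolism, was at 2.20 FPKM with PRP and 1.02 in the control (2.16, 1.62 to 2.91). Atic, of purine synthesis, was at 9.002 and 6.30 FPKM (1.43, 1.31 to 1.56), while Paics of the same pathway was at 21.8 and 24.5 FPKM (0.888, 0.823 to 0.959). Gart, also of purine synthesis, was at 9.19 and 7.33 FPKM (1.253, 1.13 to 1.39). Impdh2, of the same synthesis, was at 17.9 and 14.7 FPKM (1.22, 1.11 to 1.34). Of the purine synthesis genes named here, Paics alone was lower in the PRP library. Dtymk, which phosphorylates thymidylate, was at 5.21 and 5.58 FPKM. Among 13 other chromatin genes of replication, with a median of -0.03, Dnmt1, the maintenance methyltransferase that works with Uhrf1, was at 23.9 and 30.1 FPKM (0.792, 0.756 to 0.829). The histone chaperone Nasp was at 29.6 and 24.3 FPKM (1.22, 1.16 to 1.28). Asf1b and Asf1a, histone chaperones of the fork, were at 1.24 and 1.58 FPKM and at 2.06 and 1.74 FPKM, with intervals that included 1. Asf1a shares 48.05% of its exon length with Mcm9 on the opposite strand, so the values of these 2 genes may not be separate.

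Cell cycle genes on either side of S phase had lower medians than the replication genes. Of 11 tested G1/S cyclins and kinases, 9 were lower in the PRP library, 4 of them by at least 1.5-fold, and the median log2 fold change was -0.27. Over all genes tested, 49.1% were lower and 4.57% were lower by at least 1.5-fold. Ccne1, the cyclin that drives S phase entry, was at 4.68 FPKM with PRP and 10.6 in the control, a ratio of 0.442 (0.378 to 0.516). Ccnd2 was at 20.5 and 33.2 FPKM (0.619, 0.593 to 0.645), and Ccnd1, its sister cyclin of G1, was at 28.6 and 43.7 FPKM (0.655, 0.623 to 0.689). The other cyclin E gene and Cdk2 stood nearer to 1. Ccne2 was at 7.29 and 9.24 FPKM (0.788, 0.698 to 0.891), and Cdk2 was at 3.59 and 4.08 FPKM (0.880, 0.770 to 1.01). Ccna2, the cyclin of S phase, was at 14.3 and 12.9 FPKM (1.11, 1.02 to 1.21), and the phosphatase Cdc25a was at 1.85 and 1.74 FPKM (1.06, 0.891 to 1.26).

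The G2/M and mitosis list lay further below the control than the replication genes. Of 31 tested genes 30 were lower in the PRP library, 5 of them by at least 1.5-fold (16.1%, against 4.57% of all genes). Intervals lay below 1 for 24 (77.4%, against 26.1% of all genes with recovered reads) and above 1 for none. The median log2 fold change was -0.43. Mki67, the proliferation marker, was at 22.6 FPKM with PRP and 39.2 in the control (0.577, 0.555 to 0.599). Top2a, which untangles sister chromatids, was at 18.6 and 28.7 FPKM (0.645, 0.617 to 0.675), and the mitotic cyclin Ccnb2 was at 6.63 and 11.2 FPKM (0.591, 0.492 to 0.709). At the upper end, Ttk was at 1.22 and 1.245 FPKM and Ube2c at 12.5 and 11.4 FPKM, both with intervals that included 1. In 27 of the 31 genes the ratio was under 0.923, the median ratio of the replication genes. With 1 library in each group the difference between the lists was not tested.

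**Figure D4:**
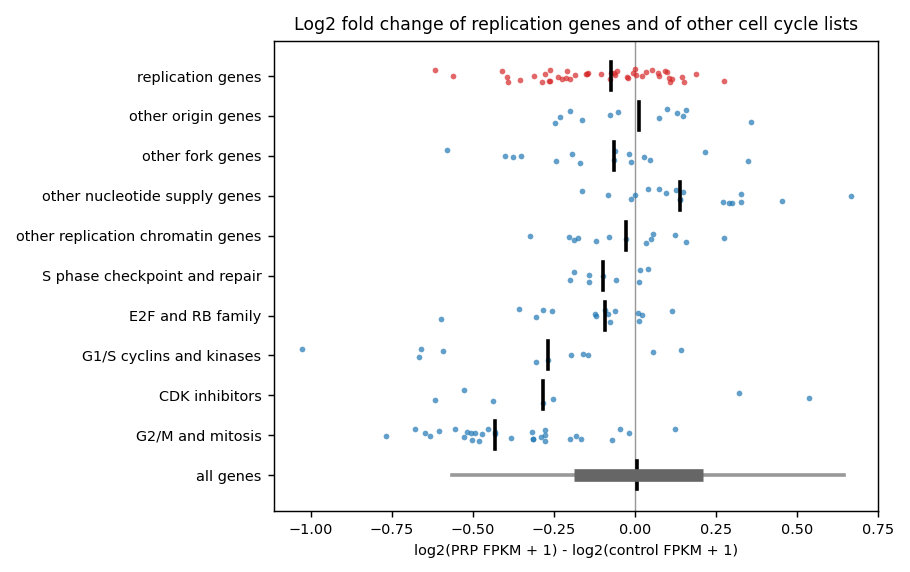
Log2 fold change (x axis) of each tested gene in the replication set (red) and in 9 other cell cycle lists (blue), with list medians as black bars and, for all 13401 genes, the median with a box between the quartiles and a line from the 5th to the 95th percentile. The replication median is -0.08, that of G2/M genes is -0.43 and that of other nucleotide supply genes is 0.14.

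Markers of cell types moved between the libraries as well, and genes of the mitochondrial genome held 2.06% of all FPKM with PRP and 3.70% in the control. The part of these differences in the replication values was not tested. All 8 tested FAP and fibroblast markers were lower in the PRP library with intervals below 1, their summed level was 335.9 FPKM against 570.0 in the control library, and their median log2 fold change was -0.63. Dpt, a matrix protein gene, was at 18.8 and 50.2 FPKM, and Col3a1 was at 26.9 and 53.7 FPKM, while Dcn was at 7.54 and 8.36 FPKM. Adipocyte markers held level in sum, at 140.9 and 146.2 FPKM, with 7 of 8 tested and a median of 0.06. Pparg, the regulator of adipocyte fate, was at 8.69 and 6.55 FPKM (1.33, 1.15 to 1.53), and Fabp4, a lipid carrier, was at 40.7 and 33.6 FPKM (1.21, 1.15 to 1.27). Lpl was at 67.4 and 83.3 FPKM (0.810, 0.791 to 0.828), and Plin1, of lipid droplets, was at 1.73 and 2.10 FPKM. Of the other cell types, some markers were at or near 0 and others were present at a few FPKM. Muscle stem cell and myoblast genes Pax7, Myod1 and Myog were at or near 0 in both libraries, as were Ptprc, which all leukocytes carry, at 0.0109 and 0.0192 FPKM, and the platelet genes Ppbp and Gp9. The summed level of the 5 platelet markers was 1.55 FPKM with PRP and 1.3998 in the control, that of the 5 macrophage markers 10.1 and 10.4, and that of the 4 endothelial markers 9.24 and 5.21. In these lists the higher values came from Lyz2 and Cd68 of macrophages, at 4.91 and 7.57 FPKM and at 4.56 and 2.31 FPKM, and from the muscle filament gene Des at 2.91 and 3.39 FPKM. Endothelial Pecam1 and Cdh5 were under 1 FPKM in both libraries, while Kdr was at 4.23 and 1.499 FPKM (2.82, 2.43 to 3.28) and Tek at 4.73 and 3.56 FPKM.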

How the data were processed

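Per the labels and the methods of the study, RNA was extracted with TRIzol from 2 cultures, and libraries were made with a stranded mRNA kit. According to the submitters' processing notes, fastp 0.23.4, STAR 2.5.3a and featureCounts were used with the mouse build mm10. The deposited files hold FPKM for each gene as the authors computed it. The annotation release and the strand setting of the counting are not given in the sources used here, so a gene and a partner that overlaps it on the other strand may share reads. Differential tables of the authors were not used.

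Genes were matched to GENCODE M21 (GRCm38, the same assembly as mm10). FPKM times summed exon length came out as whole reads, within 0.001 reads, for 26406 of 28160 genes above 0 (93.8%). Even numbers made up 79.3% and 80.3% of genes with up to 8 reads, as when mates are counted separately, so intervals used reads divided by 2. Intervals are exact Clopper-Pearson 95% binomial intervals of the PRP share, turned into a ratio of FPKM. With 1 library in each group no p-value was computed and no count test was run. The members and the gene lists were chosen with earlier results of these data known. All members are described, and from each other list the 2 lowest and 2 highest tested genes are named, with a few cell cycle genes named in any case, 1 of which is not reported here. Pdgfra, Gart, Impdh2 and marker genes at or near 0 were named after their values were seen. Of 184 listed genes 183 were in the files, and Myf5 was not analysed here. Sequences are from RefSeq (GRCm38.p6) and, for 3′UTRs, from the M21 transcripts.

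Alternatives were other pseudocounts, filters, scalings, fold limits and units of counting, and the removal of genes that share exons. The software was bedtools 2.31.1, SciPy 1.17.1, NumPy 2.4.6, matplotlib 3.10.9 and pandas 2.3.3 under Python 3.11.15, and read recovery and intervals were tested on simulated data.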

Additional observations from a re-analysis of the deposited data

How the results depend on the processing

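No paired analysis was possible because there is 1 library for PRP and 1 for the control, and no library could be left out. The median log2 fold change of the replication genes stayed below 0 under every setting run. Pseudocounts of 0.1 and 5 gave -0.11 and -0.049. It was -0.15 for the 21 members with a mean of at least 5 FPKM, -0.11 when both libraries were scaled to the same sum and -0.13 when that sum left out mitochondrial genes and the 50 most abundant genes. Both rescalings also raised all FPKM against the pseudocount. With the overall level kept, an alternative chosen after seeing the data, the medians were -0.09 and -0.10, and 1 and 2 members were lower by at least 1.5-fold. The number lower by at least 1.5-fold, 1 as reported, was 0 with a pseudocount of 5 and 0 at the 5 FPKM filter. It was 2 under each of the rescalings that raised all FPKM, 6 at the lower fold limit and 0 at 2-fold. At the 5 FPKM filter, which tests fewer genes, 16 members were lower, 11 intervals lay below 1 and 1 above. Counting reads in place of fragments narrows the intervals, and then 21 lay below 1 and 6 above. Rescalings and centring turned the direction of Cdc7 alone among the members, and that gene was level as deposited. Leaving out the 3 members that share at least 50% of their exons with another gene hardly changed the median, at -0.074 against -0.076. Depth limits the low members, since counting intervals reached 45.4% of the ratio on either side, and culture-to-culture spread is unknown for every gene.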

Other observations

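Regulators around the replication genes were measured as well. Of 15 tested genes of the E2F and RB families, 11 were lower in the PRP library, where 49.1% of all genes tested were lower. Intervals lay below 1 for 4 of them and above 1 for none, beside 26.1% of all genes with recovered reads on each side. Their median log2 fold change was -0.09. Rb1, the repressor that holds E2F in G1, was at 1.52 FPKM with PRP and 2.81 in the control, a ratio of 0.540 (0.447 to 0.652). E2f8, a repressor of late S phase, was at 1.905 and 2.72 FPKM (0.700, 0.579 to 0.844). Mybl2 and Lin37, which serve in cell cycle gene complexes, were at 2.80 and 2.74 FPKM and at 3.30 and 2.98 FPKM, both with intervals that included 1.

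CDK inhibitors moved in both directions. Of 7 tested, 4 intervals lay below 1 and 2 above, where 26.1% of all genes with recovered reads had intervals on each side. Cdkn1a, the p21 gene, was at 15.2 FPKM with PRP and 10.1 in the control (1.496, 1.35 to 1.65), and Cdkn2b was at 16.6 and 13.1 FPKM (1.27, 1.10 to 1.47). Cdkn2c was at 2.67 and 4.63 FPKM (0.577, 0.463 to 0.716), and Cdkn2a was at 14.0 and 20.6 FPKM (0.679, 0.585 to 0.786). Among 9 tested S phase checkpoint and repair genes the median log2 fold change was -0.10. They had 2 intervals below 1 and none above, beside the same 26.1% of all genes on each side. Rad51ap1 was at 3.72 and 4.42 FPKM (0.842, 0.725 to 0.976) and Fanci at 1.95 and 2.36 FPKM (0.825, 0.684 to 0.996), while Chek1 and Atrip, of the replication stress response, were at 1.97 and 1.94 FPKM and at 1.67 and 1.601 FPKM.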
